A study of Mus musculus with 18 samples.

Results

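The 10 genes described here encode interferon-induced GTPases: 4 guanylate-binding proteins (GBPs), Gbp2, Gbp3, Gbp5 and Gbp7, and 6 immunity-related GTPases (IRGs), Igtp (also called Irgm3), Irgm1, Irgm2, Iigp1, Tgtp1 and Tgtp2. They were taken by gene symbol from the deposited table of read counts, which lists 24514 genes, and all 10 were found. Of the whole table, 13802 genes passed the filter on low counts, and these 10 were among them.

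RNA-seq was run on a mouse embryonic fibroblast line that carries doxycycline-inducible Mef2c, Gata4 and Tbx5 (MGT, transcription factors that drive fibroblasts towards cardiomyocytes) and an eGFP reporter under the Myh6 promoter of cardiomyocytes. The cells received an siRNA against Chst7 (siChst7), which encodes a carbohydrate sulfotransferase, or a control siRNA (siControl), and were harvested at 3 times with 3 libraries in each of the 6 groups. The siChst7 and siControl groups of day 0 had the siRNA and no doxycycline. The siChst7 and siControl groups of day 1 and of day 3 were given 1 μg/mL doxycycline from day 0 on. Each library pooled 40 wells that had been seeded with 1000 cells per well. The labels call the samples biological replicates and give 1 cell line, so that all groups share its genetic background, and the sequence and target of siControl were not given in the sources used here. Every group after day 0 had doxycycline, so in any change over days the factors, the time in culture and the time since transfection cannot be told apart.

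GBPs and IRGs are GTPases that mouse cells make in quantity after interferon-gamma and, to a lesser degree, after type I interferon. Interferon-gamma acts on its target genes through the gamma-activated sequence (GAS), and type I interferon through the interferon-stimulated response element (ISRE). In infected fibroblasts and macrophages the proteins coat the vacuoles of intracellular parasites and bacteria. Among the IRGs, Irgm1, Irgm2 and Igtp act as regulators that sit on the cell's own membranes, and Iigp1 and the Tgtp proteins are effectors that load onto vacuoles.

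The promoter sequences are shown because the 10 genes are grouped by their response to interferon, and the ISRE and GAS are the elements through which that response is known to run. RefSeq windows of 300 bases, from 250 before the start site to 50 from it on (GRCm38.p6, the assembly that mm10 names), were available for 9 of the 10 genes, and Iigp1 is named only. Both strands were searched for the ISRE core GAAANNGAAA and the GAS TTCNNNGAA. Capitals mark the matches of either motif in the stretch of 50 bases around the ISRE core nearest the start site, printed in the direction of transcription.
Gbp2: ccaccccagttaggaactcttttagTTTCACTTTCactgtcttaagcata
Gbp3: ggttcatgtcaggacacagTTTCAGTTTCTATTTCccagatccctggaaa
Gbp5: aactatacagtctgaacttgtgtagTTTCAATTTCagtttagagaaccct
Gbp7: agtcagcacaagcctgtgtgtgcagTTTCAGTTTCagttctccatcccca
Igtp: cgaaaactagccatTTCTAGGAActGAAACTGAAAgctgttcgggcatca
Irgm1: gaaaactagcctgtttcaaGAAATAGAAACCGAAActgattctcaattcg
Irgm2: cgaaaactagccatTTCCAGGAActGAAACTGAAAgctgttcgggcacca
Tgtp1: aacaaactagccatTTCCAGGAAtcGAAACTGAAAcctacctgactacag
Tgtp2: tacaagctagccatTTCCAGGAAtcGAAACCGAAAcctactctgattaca

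The stretches printed lie on the plus strand at chr3:142620579-142620628 for Gbp2, chr3:142559980-142560029 for Gbp3, chr3:142496744-142496793 for Gbp5 and chr3:142530258-142530307 for Gbp7, and also on the plus strand at chr11:58199497-58199546 for Igtp and chr11:58214888-58214937 for Irgm2. On the minus strand they lie at chr11:48871420-48871469 for Irgm1, chr11:48992299-48992348 for Tgtp1 and chr11:49064258-49064307 for Tgtp2. An ISRE core was found in the window of each of the 9 genes, against 3.44% of all 32851 RefSeq promoter windows and 3.99% of the 27025 genes that have one. The core lies on the strand opposite to transcription in the 4 GBP promoters, where it is printed as its reverse complement, and on the strand of transcription in the 5 IRG promoters. Gbp3 and Irgm1 each have 2 overlapping cores. A second RefSeq promoter window of Gbp3 holds neither motif. The GAS was found in Gbp5, Gbp7, Igtp, Irgm2, Tgtp1 and Tgtp2, against 8.3% of all windows, and it overlaps no ISRE core in these genes. In Igtp, Irgm2, Tgtp1 and Tgtp2 the GAS stands just before the ISRE core, at the same spacing in all 4. In Gbp5 and Gbp7 the GAS matches, 2 in each gene, lie outside the stretches printed. The windows of Igtp and Irgm2 were identical at 93.6% of 264 aligned bases, and those of Tgtp1 and Tgtp2 at 83.3% of 269. The other pairs with at least 200 aligned bases ranged from 67.8% for Irgm1 and Tgtp2 to 77% for Igtp and Irgm1. Pairs of a GBP and an IRG lay within that range, such as Gbp7 and Tgtp1 at 71.4%. A match is a string of letters, and no binding was measured here.

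**Figure D1:**
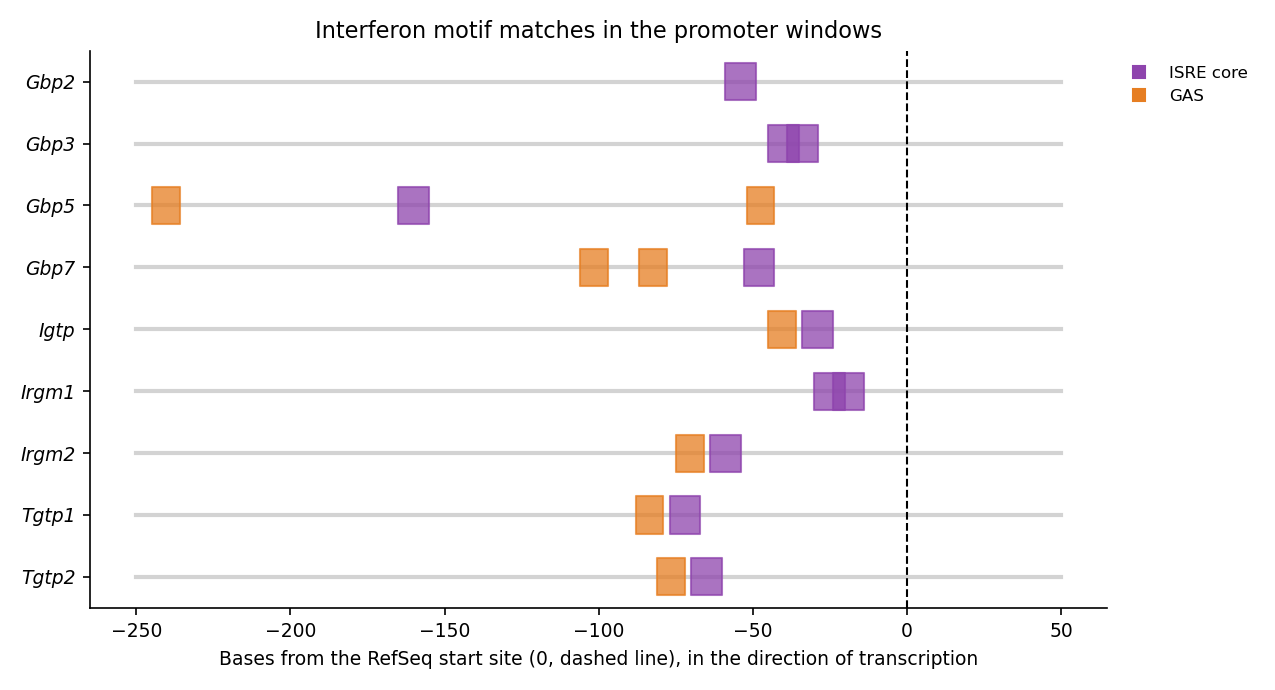
Position of each ISRE core (purple) and GAS (orange) match in the promoter window of 9 genes, in bases from the RefSeq start site at 0, with the grey line showing the 300 bases searched. The ISRE core begins between 24 and 64 bases before the start site nearest to it in 6 of the genes shown, at 70 and 77 in Tgtp2 and Tgtp1, and at 165 in Gbp5.

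The 4 GBP genes lie together on the plus strand of mouse chromosome 3. Gbp5 lies at chr3:142496934-142522344, Gbp7 at chr3:142530336-142550151, Gbp3 at chr3:142560016-142573213 and Gbp2 at chr3:142620663-142638008. Irgm1 at chr11:48865245-48871420, Tgtp1 at chr11:48985329-48992246 and Tgtp2 at chr11:49057196-49064212 lie on the minus strand of chromosome 11. Igtp at chr11:58199556-58207592 and Irgm2 at chr11:58214977-58222783 lie on its plus strand. Counts cover the exons of each gene as the authors' annotation joined them. Of the 50-base stretches in their GENCODE transcripts, 81.2% of those of Tgtp1 and 86.6% of those of Tgtp2 also occur in another gene, mostly the other Tgtp gene. The share was 12.7% for Gbp7, 11.8% for Igtp, 7.77% for Irgm2 and at most 3.75% for the other 5 genes. The treatment of reads that match several genes, and of strand, was not given in the sources used here, so the split of reads between Tgtp1 and Tgtp2 is uncertain, and the result of their summed counts is given where a comparison turns on either.

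The libraries held 30590742 to 50021142 counted reads each. Chst7 ranged from 0.238 to 2.96 CPM (counts scaled to the size of the library) in the siChst7 libraries, against 18.6 to 40.4 CPM in the siControl libraries, in the direction its label gives. Its means in siChst7 and siControl cells were 0.438 and 19.2 CPM at day 0, 0.755 and 37.6 CPM at day 1, and 2.16 and 25.1 CPM at day 3. The depletion was thus weaker in proportion at day 3. Tbx5 averaged 125 and 137 CPM in the siChst7 and siControl groups of day 0, 1307 and 1219 CPM in those of day 1, and 591 and 743 CPM in those of day 3. The fibroblast markers summed to 6813 to 12767 CPM in all libraries, and Thy1, 1 of the 7, was nearly absent, with 0 counts in the siChst7 libraries of day 0 and at most 0.445 CPM in any library. Markers of T and NK cells, the cells known to make interferon-gamma, summed to at most 0.639 CPM. The libraries of a group differed from each other by more than counting error. The chi-square of their counts, divided by its degrees of freedom, ran from 2.92 to 5.27 over the pairs of 4 groups. In siChst7 cells of day 0 it was 14.8 and 14.5 for the pairs with replicate 3, against 3.61 for the other pair. In siChst7 cells of day 3 it was 55.3 and 48.0 for the pairs with replicate 2, against 21.2 for the other pair. In bulk RNA, fewer cells of a type and less RNA per cell cannot be told apart.

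Levels of the 10 genes can be compared with one another only per length, so they are given here as RPKM (counts scaled to the size of the library and the length of the gene), computed from the counts and the deposited gene lengths. Irgm1, whose protein sits on Golgi and mitochondrial membranes, had the highest level of the 10 in all 6 groups. At day 0 Irgm1 stood at 34.3 ± 2.29 RPKM in siChst7 cells and 36.4 ± 0.327 RPKM in siControl cells (SD, n = 3 each). At day 1 it stood at 24.3 ± 0.657 RPKM in siChst7 cells and 18.6 ± 0.907 RPKM in siControl cells. Gbp2 came next at day 0, at 14.5 ± 0.992 RPKM in siChst7 cells and 15.7 ± 0.335 RPKM in siControl cells. Gbp3 at 13.0 ± 1.20 RPKM and Igtp at 12.4 ± 0.859 RPKM did not differ beyond their spread in the siChst7 cells of day 0. In the siControl cells of day 0 Igtp stood above Gbp3, at 13.9 ± 0.229 against 11.2 ± 0.429 RPKM. Iigp1, Gbp7 and Irgm2 followed in siChst7 cells at 9.81 ± 0.556, 7.76 ± 0.322 and 6.29 ± 0.900 RPKM. In siControl cells Gbp7 at 7.03 ± 0.552 RPKM and Irgm2 at 7.45 ± 0.274 RPKM did not differ beyond their spread. The level of Gbp5 at day 0 was 0.872 ± 0.111 RPKM in siChst7 cells and 0.750 ± 0.119 RPKM in siControl cells, and both Tgtp genes were under 0.50 RPKM. By day 3 the order in siChst7 cells still began with Irgm1 at 40.8 ± 4.37 RPKM and Gbp2 at 13.8 ± 1.04 RPKM, and in siControl cells with 28.4 ± 0.841 RPKM and 9.88 ± 0.994 RPKM. Gbp5 was then last, at 0.0544 ± 0.00293 RPKM in siChst7 cells and 0.0109 ± 0.00973 RPKM in siControl cells.

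**Figure D2:**
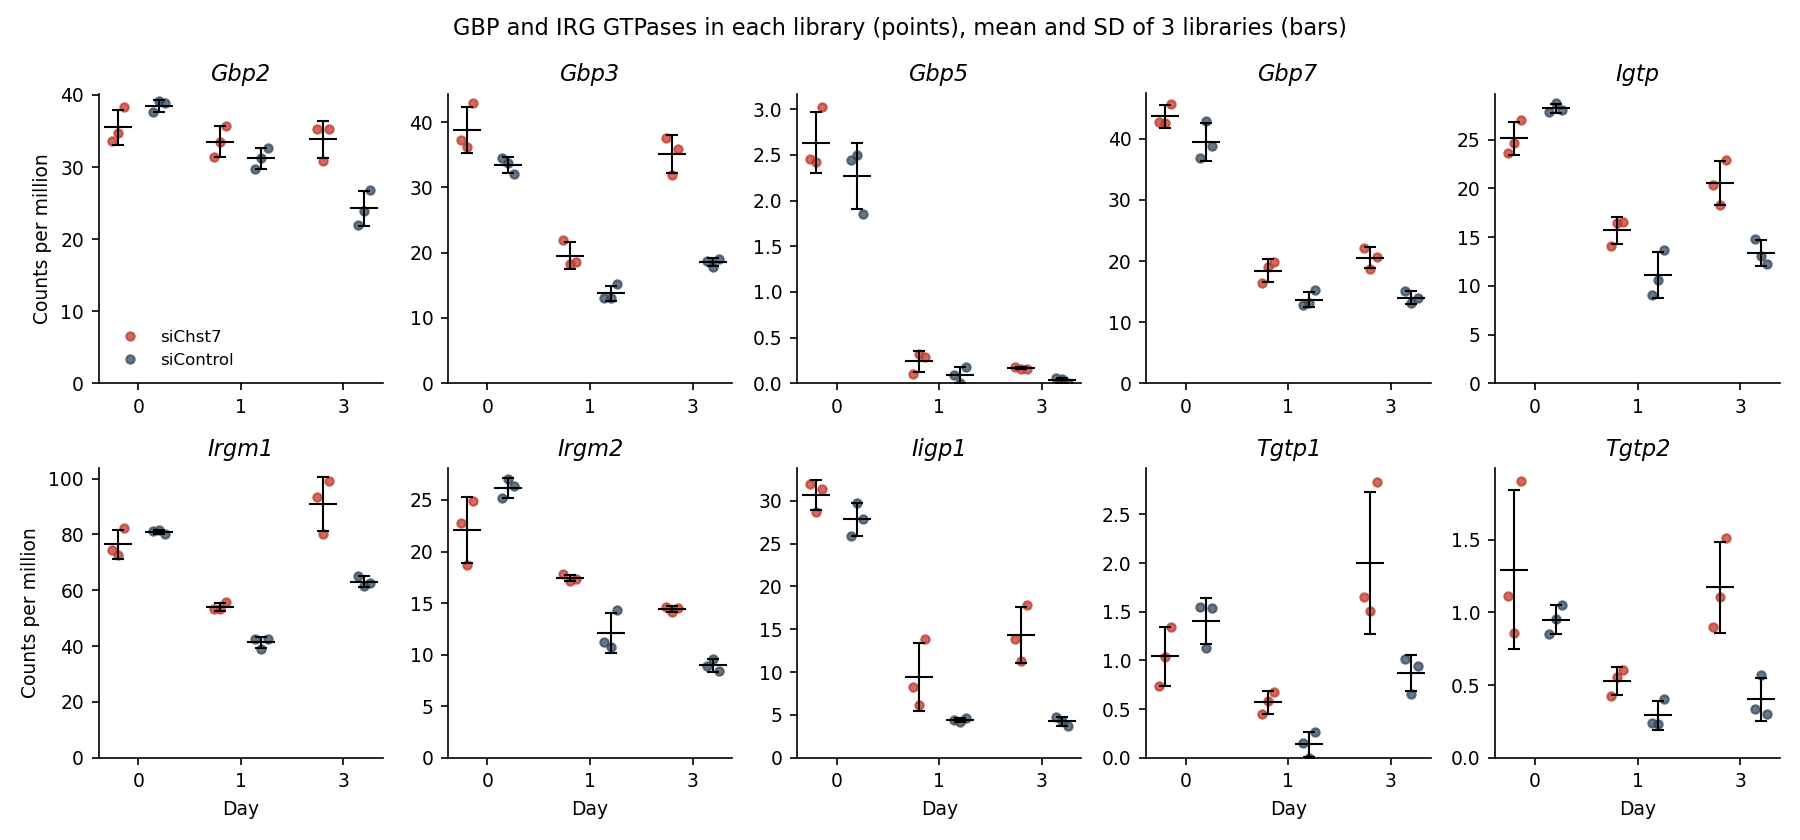
CPM of each of the 10 genes (vertical axis, linear from 0) in every library by day, with siChst7 in red left of siControl in dark blue, points for libraries and bars for the mean and SD of 3 libraries. Iigp1 at day 3 lay between 11.2 and 17.8 CPM in siChst7 libraries, against 3.74 to 4.71 CPM in siControl libraries.

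The first comparison set siChst7 against siControl at each day. At day 0, before the factors were induced, these genes differed little between groups: Gbp3 was higher in siChst7 cells and the other 9 genes did not pass the test. That is 1 of 10 higher and 0 lower, where 13.9% of all tested genes were called higher and 13.5% lower (edgeR's quasi-likelihood test with Benjamini-Hochberg adjustment over all tested genes, threshold 0.05, here and below). Gbp3, of the chromosome 3 cluster, had 37.3, 36.2 and 42.9 CPM in siChst7 libraries, against 34.5, 33.7 and 32.0 CPM in siControl libraries. These values do not overlap, though the lowest siChst7 library lies just above the highest siControl library, and the log2 fold change was 0.22 ± 0.08 (SE, adjusted p = 0.0447). The regulator Irgm2 had 22.7, 18.7 and 24.9 CPM in siChst7 libraries, against 25.1, 27.0 and 26.4 CPM in siControl libraries. All of its siChst7 values lie below all of its siControl values, by a log2 fold change of -0.25 ± 0.09 that missed the threshold (adjusted p = 0.0528) and passed it under 5 of its 16 alternatives (adjusted p from 0.0134 to 0.298 over all of them). Over the 10 genes the median log2 fold change was 0.028, with 5 above 0 and 5 below, beside 0.0058 over all tested genes.

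The call on Gbp3 at day 0 was lost when any 1 of 5 libraries was left out (adjusted p from 0.0558 to 0.244), the exception being siChst7 replicate 2, and its log2 fold change was 0.14 without siChst7 replicate 3. With an offset for gene length the call passed from Gbp3 (adjusted p = 0.0563) to Irgm2, then lower (adjusted p = 0.0182). Of all genes called at day 0, 50.6% were higher in siChst7, 69.4% when libraries were scaled by their totals and 38.3% with the offset for gene length.

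At day 1, 7 of the 10 genes were higher in siChst7 cells and none was lower, beside 8.86% higher and 8.72% lower among all tested genes. These were Gbp3, Gbp7, Igtp, Irgm1, Irgm2, Iigp1 and Tgtp1, and the log2 fold changes of Gbp2, Gbp5 and Tgtp2, also above 0, did not pass the test. The median of the 10 was 0.51, beside 0.010 over all tested genes. Irgm1 had 53.2, 53.2 and 55.8 CPM in siChst7 libraries, against 42.4, 39.1 and 42.7 CPM in siControl libraries. The groups are well apart, by a log2 fold change of 0.38 ± 0.07 (adjusted p = 0.000209). Iigp1, an effector known to load onto Toxoplasma vacuoles, had 8.25, 6.21 and 13.9 CPM in siChst7 libraries, against 4.39, 4.22 and 4.68 CPM in siControl libraries. Its siChst7 libraries spread widely while its siControl libraries lie close together, and the log2 fold change was 1.08 ± 0.21 (adjusted p = 0.000944), or 0.70 without siChst7 replicate 3.

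The other IRG regulators moved alike at day 1. Igtp, known for its part in resistance to Toxoplasma, had 14.1, 16.5 and 16.5 CPM in siChst7 libraries, against 9.06, 10.5 and 13.7 CPM in siControl libraries. The highest siControl library lay just below the lowest siChst7 library, and the log2 fold change was 0.50 ± 0.12 (adjusted p = 0.0037). Irgm2 had 17.8, 17.2 and 17.4 CPM in siChst7 libraries, against 11.2, 10.8 and 14.3 CPM in siControl libraries, without overlap (log2 fold change 0.53 ± 0.10, adjusted p = 0.000748). Among the GBPs, Gbp3 was higher by 0.50 ± 0.09 and Gbp7 by 0.43 ± 0.09 on the log2 scale. Gbp2, which acts on pathogen vacuoles, averaged 33.5 ± 2.16 CPM in siChst7 cells and 31.2 ± 1.44 CPM in siControl cells (SD, n = 3 each), with overlap, and its log2 fold change of 0.10 ± 0.07 was not called (adjusted p = 0.376).

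Tgtp1 and Gbp5 rest on few reads at day 1. Tgtp1 had 17, 25 and 26 reads in siChst7 libraries, against 5, 0 and 9 reads in siControl libraries. Its log2 fold change of 2.04 ± 0.56 (adjusted p = 0.0131) fell to 1.45 without the siControl library that had 0 reads, replicate 2, and was then not called (adjusted p = 0.0651), and it was 2.90 without siControl replicate 3. Tgtp2 was not called by itself at 0.84 ± 0.42 (adjusted p = 0.184), and the summed counts of Tgtp1 and Tgtp2 were higher in siChst7 cells by 1.35 ± 0.36 (adjusted p = 0.0119). Gbp5, linked in mouse macrophages to inflammasome assembly, had 4, 14 and 11 reads in siChst7 libraries, against 3, 0 and 6 reads in siControl libraries. These overlap, and its log2 fold change of 1.43 ± 0.63 was not called (adjusted p = 0.13).

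Markers of other cells moved with siChst7 at day 1 as well. Fibroblast markers summed to 10843 to 11061 CPM in siChst7 libraries, against 12312 to 12767 CPM in siControl libraries, and cardiomyocyte markers to 114 to 141 CPM, against 106 to 111 CPM. The fibroblast list did not move as its sum did. Of 6 tested fibroblast markers, 3 were called higher and 1 lower in siChst7 cells, with a median log2 fold change of 0.26. Macrophage and leukocyte markers summed to 7.58 to 8.20 CPM in siChst7 libraries, against 6.03 to 7.31 CPM in siControl libraries. Of that list, Itgam was called higher at 1.98 ± 0.52 (adjusted p = 0.0098) and Cd68 at 0.33 ± 0.11 (adjusted p = 0.0438), and Adgre1 and Tyrobp had 0 counts in both groups. Endothelial markers summed to 0.814 to 0.897 CPM in siChst7 libraries, against 0.241 to 0.460 CPM in siControl libraries, with Cdh5 called higher on 20 reads against 0. The part of these markers in the differences of day 1 was not tested.

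At day 3 all 10 genes were higher in siChst7 cells, beside 23.1% called higher and 21.6% called lower among all tested genes. Their log2 fold changes ran from 0.48 for Gbp2 to 2.26 for Gbp5, with a median of 0.80, beside 0.0089 over all tested genes. The siControl libraries of day 3 are the same ones in every one of these fits, so the 10 calls are not independent of each other.

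Iigp1 had the largest difference at day 3 among the genes with over 100 reads in every library of both groups. It had 13.9, 11.2 and 17.8 CPM in siChst7 libraries, against 4.71, 4.30 and 3.74 CPM in siControl libraries. The lowest siChst7 library lies far above the highest siControl library, and the fitted ratio was 3.35-fold (log2 fold change 1.74 ± 0.20, adjusted p = 8.81e-07). Gbp3 had 37.5, 31.9 and 35.9 CPM in siChst7 libraries, against 18.7, 17.8 and 19.0 CPM in siControl libraries. Its groups are as clearly apart, by 1.89-fold (log2 fold change 0.92 ± 0.08, adjusted p = 4.13e-08). Irgm1 had 93.5, 80.2 and 99.2 CPM in siChst7 libraries, against 65.3, 61.7 and 62.5 CPM in siControl libraries. That is 1.44-fold higher (log2 fold change 0.52 ± 0.06, adjusted p = 1.15e-06), without overlap.

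Irgm2 and Igtp were also higher with the knockdown at day 3. Irgm2, known to restrain caspase-11, had 14.6, 14.1 and 14.5 CPM in siChst7 libraries, against 8.92, 9.62 and 8.40 CPM in siControl libraries (log2 fold change 0.68 ± 0.10, adjusted p = 2e-05). Igtp had 20.4, 18.3 and 22.9 CPM in siChst7 libraries, against 14.8, 13.1 and 12.2 CPM in siControl libraries (log2 fold change 0.62 ± 0.11, adjusted p = 0.000111). In both genes the groups are apart, with tighter siChst7 values in Irgm2. Gbp7 had 22.1, 18.8 and 20.7 CPM in siChst7 libraries, against 15.1, 13.1 and 13.9 CPM in siControl libraries (log2 fold change 0.55 ± 0.09, adjusted p = 3.17e-05). Gbp2 had 35.3, 30.9 and 35.3 CPM in siChst7 libraries, against 22.0, 23.9 and 26.8 CPM in siControl libraries. It had the smallest of the 10 differences, 1.39-fold (log2 fold change 0.48 ± 0.07, adjusted p = 2.59e-05), and its groups do not overlap.

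The 3 genes with low counts were higher in siChst7 at day 3 as well. Tgtp1 had 57, 67 and 88 reads in siChst7 libraries, against 36, 31 and 41 reads in siControl libraries (log2 fold change 1.19 ± 0.33, adjusted p = 0.00574). Tgtp2 had 31, 49 and 47 reads in siChst7 libraries, against 12, 27 and 13 reads in siControl libraries (log2 fold change 1.5 ± 0.34, adjusted p = 0.00124). Their summed counts differed by 1.30 ± 0.27 (adjusted p = 0.000422). Gbp5 had 6, 7 and 5 reads in siChst7 libraries, against 2, 2 and 0 reads in siControl libraries, so that its log2 fold change of 2.26 ± 0.82 (adjusted p = 0.0285) is poorly fixed. The Gbp5 call was lost without siChst7 replicate 1 or 3 or siControl replicate 2 or 3 (adjusted p from 0.0505 to 0.113), and the Tgtp1 call without siChst7 replicate 3 (adjusted p = 0.0633).

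**Figure D3:**
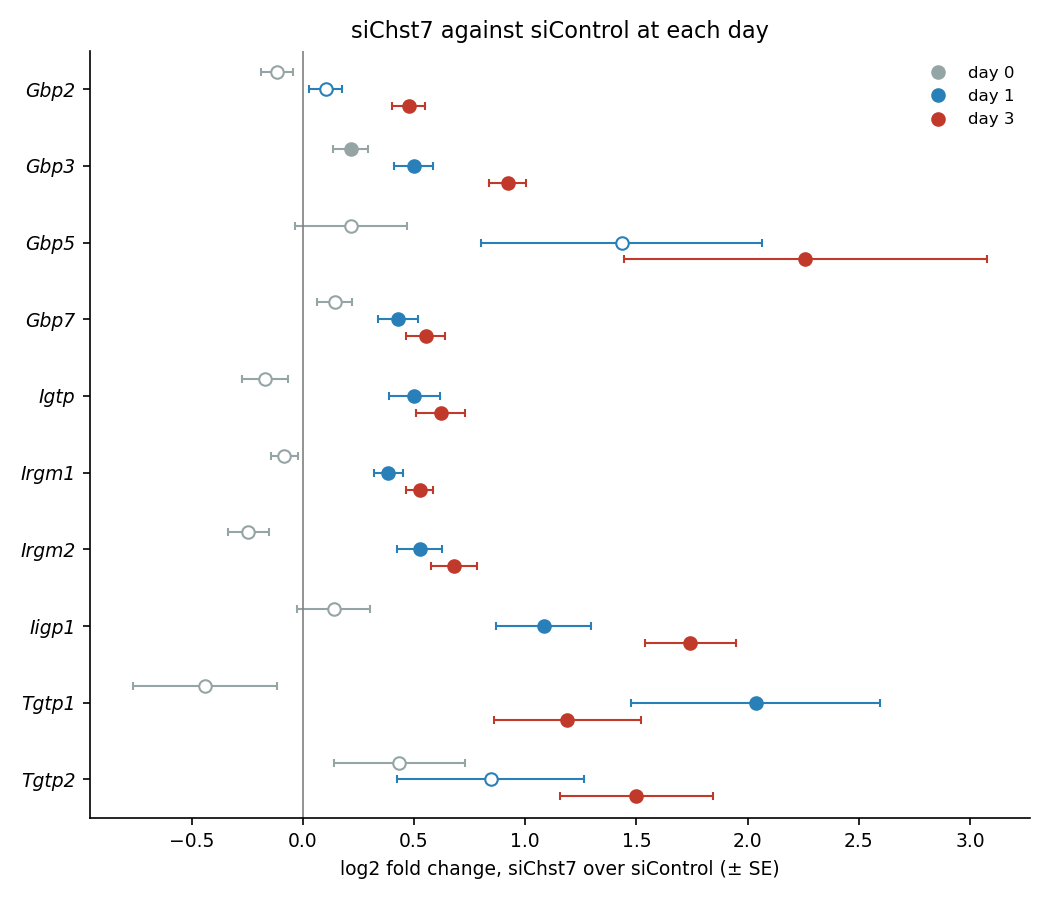
Log2 fold change of siChst7 over siControl (horizontal axis, ± SE) for each of the 10 genes at day 0 (grey), day 1 (blue) and day 3 (red), filled where edgeR's adjusted p was below 0.05. At day 3 all 10 lie between 0.48 and 2.26, and at day 0 they lie between -0.44 and 0.43 on both sides of 0.

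Other measures moved with siChst7 at day 3. The ribosomal RNA gene Rn45s took 1.96%, 0.605% and 0.654% of reads in siChst7 replicates 1, 2 and 3, against 0.399%, 0.438% and 0.542% in siControl libraries. All siChst7 values lie above all siControl values, and Rn45s was called higher in siChst7 cells (log2 fold change 1.28). With siChst7 replicate 1 left out, 9 of the 10 genes were called higher, Gbp5 not being called. Without siChst7 replicate 2, the library farthest from the others of its group, all 10 were called higher. Cardiomyocyte markers summed to 981 to 1238 CPM in siChst7 libraries of day 3, against 817 to 880 CPM in siControl libraries, and fibroblast markers to 8767 to 9342 CPM, against 9795 to 10392 CPM. The induced factors were lower in siChst7 cells at day 3, Mef2c by a log2 fold change of -0.37 ± 0.05. The part of these in the difference was not tested. Macrophage and leukocyte markers summed to 8.25 to 9.79 CPM in siChst7 libraries of day 3, against 7.54 to 9.94 CPM in siControl libraries, which overlap. Of its 7 markers, Tyrobp had 0 counts in both groups, and Adgre1 had 1 read in siChst7 libraries and 0 in siControl libraries. Of all genes called at day 3, 51.6% were higher in siChst7, or 39.9% with an offset for gene length.

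Whether the siChst7 effect differed between days was tested as a difference of differences. Between day 0 and day 1 the effect moved upward in 5 of the 10 genes and downward in none, beside 6.2% of all tested genes in the higher direction and 5.5% in the lower. These 5 were all IRGs: Igtp by 0.67 ± 0.15 on the log2 scale, Irgm1 by 0.47 ± 0.09, Irgm2 by 0.77 ± 0.14, Iigp1 by 0.94 ± 0.27 and Tgtp1 by 2.48 ± 0.65 (adjusted p from 0.000503 to 0.0243). The summed counts of Tgtp1 and Tgtp2 gave 1.37 ± 0.44 (adjusted p = 0.0484). The IRG Tgtp2, at 0.41 ± 0.51, did not pass (adjusted p = 0.685). The 4 GBPs had differences of 0.22 for Gbp2, 0.28 for Gbp3, 1.22 for Gbp5 and 0.28 for Gbp7 that did not pass (adjusted p from 0.131 to 0.284), and a difference between GBPs and IRGs was not tested. Of the genes that passed, Igtp, Irgm1, Irgm2 and Tgtp1 had log2 fold changes of -0.17, -0.08, -0.25 and -0.44 at day 0. None of these was called, and all were above 0 at day 1. The Iigp1 call was lost without any 1 of 5 libraries (adjusted p from 0.0509 to 0.0903), among them siChst7 replicate 3 of day 1, where Iigp1 was at 13.9 CPM and without which the difference was 0.56. The other 4 libraries were siChst7 replicate 2 and siControl replicate 2 of day 0, and siControl replicates 1 and 2 of day 1. Scaling by library totals left 30.2% of all called genes in the higher direction, against 53.0% in the scaling used here.

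Between day 0 and day 3 the siChst7 effect moved upward in 8 of the 10 genes, beside 20.7% of tested genes in the higher direction and 18.1% in the lower. The differences ran from 0.41 ± 0.12 for Gbp7 (adjusted p = 0.00851) to 1.63 ± 0.46 for Tgtp1 (adjusted p = 0.00787). Iigp1 had 1.60 ± 0.26 (adjusted p = 5.73e-05) and Irgm2 0.93 ± 0.14 (adjusted p = 2.28e-05). Gbp5 at 2.04 ± 0.86 and Tgtp2 at 1.07 ± 0.46 did not pass (adjusted p = 0.0648 and 0.0693), and the summed counts of Tgtp1 and Tgtp2 gave 1.32 ± 0.36 (adjusted p = 0.00634). Between day 1 and day 3 the effect passed as higher in 2 of the 10, beside 15.3% of tested genes in the higher direction and 13.1% in the lower. This count lies near the share of all tested genes. The 2 genes were Gbp2 by 0.37 ± 0.10 (adjusted p = 0.0109) and Gbp3 by 0.42 ± 0.12 (adjusted p = 0.0121). Iigp1, at 0.66 ± 0.30, did not pass (adjusted p = 0.105), and was at 1.04 and called without siChst7 replicate 3 of day 1 (adjusted p = 0.00233). The Gbp3 call was lost without siControl replicate 3 of day 1 (adjusted p = 0.0509), and without siChst7 replicate 2 of day 3 Irgm1 and Iigp1 were called too, which made 4. Among all genes called between day 0 and day 3, 53.3% lay in the higher direction, or 35.7% when scaled by library totals. The 3 tests share the siChst7 and siControl libraries of each day with each other and with the comparisons within days.

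The second comparison followed each siRNA over time. In siControl cells all 10 genes fell between day 0 and day 1, when doxycycline had been given, beside 29.5% called higher and 30.8% called lower among all tested genes. The median log2 fold change was -1.44, beside -0.0016 over all tested genes. Gbp5 had 3, 0 and 6 reads in the siControl libraries of day 1, against 106, 113 and 83 reads in those of day 0 (log2 fold change -4.64 ± 0.44, adjusted p = 4.43e-09, or -5.59 without siControl replicate 3 of day 1). Gbp5 passed the filter on low counts through its day 0 libraries, so that filter favours a lower value at day 1 for this gene. Iigp1 had 4.39, 4.22 and 4.68 CPM at day 1, against 25.8, 29.7 and 27.9 CPM at day 0, which is 6.27-fold lower (log2 fold change -2.65 ± 0.20, adjusted p = 9.84e-11). Gbp7 had 12.8, 13.1 and 15.2 CPM at day 1, against 36.9, 42.9 and 38.8 CPM at day 0 (log2 fold change -1.53 ± 0.09, adjusted p = 6.13e-13). Irgm1, the gene with the highest level, had 42.4, 39.1 and 42.7 CPM at day 1, against 81.1, 81.6 and 80.2 CPM at day 0, a 1.95-fold lower level (log2 fold change -0.97 ± 0.06, adjusted p = 1.14e-11). Gbp2 fell least, with 29.8, 31.2 and 32.6 CPM at day 1 against 37.6, 39.1 and 38.8 CPM at day 0 (log2 fold change -0.30 ± 0.07, adjusted p = 0.00108).

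In siChst7 cells 8 of the 10 fell between day 0 and day 1, beside 29.5% called higher and 30.5% called lower among all tested genes. The 8 include Gbp5 (log2 fold change -3.42 ± 0.35, adjusted p = 1.44e-08). For Gbp5 the filter on low counts favours a lower value at day 1 here too. The median log2 fold change was -0.92, beside -0.0054 over all tested genes. Gbp3 fell by 0.99 ± 0.08 on the log2 scale, Gbp7 by 1.24 ± 0.08 and Iigp1 by 1.70 ± 0.18, against 1.27 ± 0.09, 1.53 ± 0.09 and 2.65 ± 0.20 for the same genes in siControl cells. Irgm2 had 17.8, 17.2 and 17.4 CPM at day 1, against 22.7, 18.7 and 24.9 CPM at day 0, so the groups come close without overlap (log2 fold change -0.34 ± 0.09, adjusted p = 0.00372). Gbp2 was not called, at 31.4, 33.5 and 35.7 CPM at day 1 against 33.6, 34.7 and 38.3 CPM at day 0 (log2 fold change -0.08 ± 0.07, adjusted p = 0.337). Tgtp1 was not called at -0.85 ± 0.37 (adjusted p = 0.0524), and 9 of its 15 alternative fits did call it (adjusted p from 0.0178 to 0.209 over all of them). The summed counts of Tgtp1 and Tgtp2 fell by 1.08 ± 0.27 in siChst7 cells (adjusted p = 0.00182), and in siControl cells by 2.45 ± 0.33 (adjusted p = 1.15e-06). The tests of the differences between siChst7 and siControl cells over these days are the ones between day 0 and day 1 given above. Macrophage and leukocyte markers summed to 7.58 to 8.20 CPM in siChst7 libraries of day 1, against 21.6 to 21.9 CPM in those of day 0, and to 6.03 to 7.31 CPM in siControl libraries of day 1, against 17.9 to 19.8 CPM in those of day 0. The list did not fall as a whole. Of 4 tested, 1 was called higher and 1 lower in siChst7 cells, with a median log2 fold change of -0.17. In siControl cells 2 were higher and 2 lower, with a median of -0.13. Of the 7 markers, Adgre1 had 0 counts in all of these libraries, and Tyrobp had 1 read in siChst7 libraries of day 0 and 0 in the rest. Fibroblast markers summed to 10843 to 11061 CPM in siChst7 libraries of day 1, against 6813 to 7355 CPM in those of day 0, and to 12312 to 12767 CPM in siControl libraries of day 1, against 7189 to 7450 CPM in those of day 0. Most fibroblast markers went the other way than this sum. Of 6 tested, 2 were called higher and 4 lower in siChst7 cells, with a median log2 fold change of -0.73. In siControl cells 2 were higher and 4 lower, with a median of -0.72. Cardiomyocyte markers summed to 114 to 141 CPM in siChst7 libraries of day 1, against 21.7 to 22.4 CPM in those of day 0, and to 106 to 111 CPM in siControl libraries of day 1, against 9.74 to 11.2 CPM in those of day 0. Rn45s was higher at day 1 by 0.83 ± 0.28 in siChst7 cells (adjusted p = 0.0132) and by 0.83 ± 0.28 in siControl cells (adjusted p = 0.0129). The part of these measures in the change of the 10 genes was not tested.

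From day 1 to day 3 the 10 genes no longer moved together. In siChst7 cells 6 rose and 1 fell, beside 31.7% called higher and 33.5% called lower among all tested genes. Those higher at day 3 were Gbp3, Igtp, Irgm1, Iigp1, Tgtp1 and Tgtp2. Irgm1 in siChst7 cells had 93.5, 80.2 and 99.2 CPM at day 3, against 53.2, 53.2 and 55.8 CPM at day 1 (log2 fold change 0.75 ± 0.06, adjusted p = 9.65e-10). Gbp3 in siChst7 cells had 37.5, 31.9 and 35.9 CPM at day 3, against 21.9, 18.2 and 18.5 CPM at day 1 (log2 fold change 0.85 ± 0.08, adjusted p = 9.05e-09). In both genes the values of the 2 days are far apart. Iigp1 rose by 0.59 ± 0.19 on the log2 scale with overlapping values (adjusted p = 0.00811), a call lost without siChst7 replicate 2 of day 1 (0.36, adjusted p = 0.0776) and in a fit of the compared libraries alone (adjusted p = 0.0530), and it was 0.97 without siChst7 replicate 3 of day 1. Irgm2 was the gene that fell, at -0.27 ± 0.10 (adjusted p = 0.0191), and it was not called when libraries were scaled by their upper quartile (-0.19, adjusted p = 0.0998) or totals (-0.17, adjusted p = 0.137). Igtp, at 0.38 ± 0.11, was not called with an offset for gene length (0.22, adjusted p = 0.0673). Gbp2, at 0.01 ± 0.07, was not called and lay below 0 with that offset (adjusted p = 0.903 without it). Of all called genes 48.6% were higher at day 3, 60.9% when scaled by library totals and 37.5% with the offset for gene length.

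In siControl cells 3 of the 10 rose and 2 fell from day 1 to day 3, beside 22.8% called higher and 32.3% called lower among all tested genes. These counts lie near the shares of all tested genes. Irgm1 had 65.3, 61.7 and 62.5 CPM at day 3, against 42.4, 39.1 and 42.7 CPM at day 1 (log2 fold change 0.61 ± 0.06, adjusted p = 5.13e-08). Gbp3 rose by 0.42 ± 0.09 (adjusted p = 0.000301). Tgtp1 had 36, 31 and 41 reads at day 3, against 5, 0 and 9 reads at day 1 (log2 fold change 2.63 ± 0.52, adjusted p = 0.000183). This was 2.04 without siControl replicate 2 of day 1 and 3.50 without replicate 3 of day 1, and the summed counts of Tgtp1 and Tgtp2 rose by 1.56 ± 0.36 (adjusted p = 0.000777). Gbp2 had 22.0, 23.9 and 26.8 CPM at day 3, against 29.8, 31.2 and 32.6 CPM at day 1, below all earlier values (log2 fold change -0.36 ± 0.07, adjusted p = 0.000294). Irgm2 fell by 0.43 ± 0.11 (adjusted p = 0.00152). Iigp1, at -0.07 ± 0.23, was not called and lay above 0 with upper quartile scaling, library totals or the stricter filter. Gbp7, at 0.03 ± 0.09, was not called and lay below 0 with an offset for gene length. Igtp, at 0.26 ± 0.12 (adjusted p = 0.0614), was called higher in 10 of its 16 alternative fits, with adjusted p from 0.0014 to 0.345 over all of them. Of all called genes 41.4% were higher at day 3, 57.3% when scaled by the upper quartile and 65.0% when scaled by library totals, which moved the median log2 fold change of all genes by 0.10 and 0.15.

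**Figure D4:**
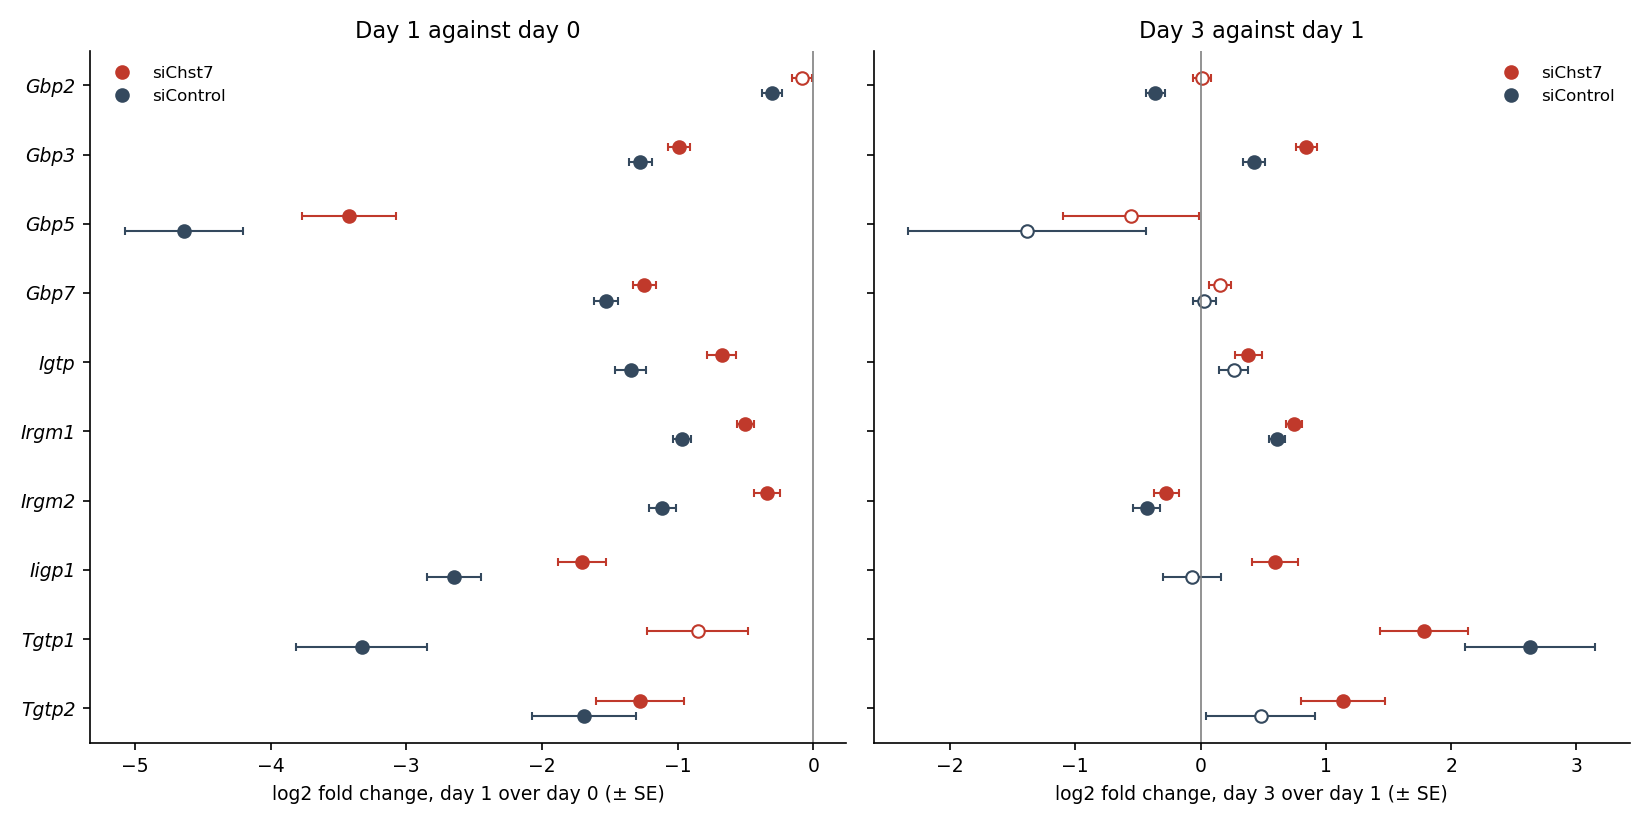
Log2 fold change of day 1 over day 0 (left) and of day 3 over day 1 (right), ± SE, for each of the 10 genes in siChst7 cells (red) above siControl cells (dark blue), filled where edgeR's adjusted p was below 0.05. On the left all values lie below 0, from -4.64 for Gbp5 in siControl cells to -0.08 for Gbp2 in siChst7 cells, and on the right they lie on both sides of 0.

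The other genes of the same pathways are given by lists. Their counts stand beside the shares of all tested genes called in the same comparisons: 13.9% higher and 13.5% lower in siChst7 at day 0, 8.86% and 8.72% at day 1, and 23.1% and 21.6% at day 3. From day 0 to day 1 these shares were 29.5% and 30.5% in siChst7 cells, and 29.5% and 30.8% in siControl cells. Of 12 other GBP and IRG family genes, 10 were tested. At day 3 in siChst7 against siControl cells, 4 of them were higher and 1 lower, with a median log2 fold change of 0.60. Ifi47, an IRG of the effector kind, was higher by 1.12 ± 0.14 (adjusted p = 3.11e-06), Gbp6 by 0.67 ± 0.13 (adjusted p = 0.000192) and Gbp9 by 0.58 ± 0.12 (adjusted p = 0.000337). Gbp4, at 0.25 ± 0.17, did not pass (adjusted p = 0.256). At day 1, 2 of the 10 were higher, Gbp6 by 0.62 ± 0.14 and Gbp9 by 0.40 ± 0.13, and at day 0 only Irgq was called, higher by 0.27 ± 0.07. Between day 0 and day 1, 7 of these 10 fell and 2 rose in siControl cells, and 6 fell and 1 rose in siChst7 cells. Gbp6 had a log2 fold change of -1.88 ± 0.13 in siControl cells and of -1.51 ± 0.11 in siChst7 cells.

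Among the ligands, Ifng had 0 reads over the 3 siChst7 libraries and 2 over the 3 siControl libraries of day 0, and Ifnb1 had 14 and 6. At day 1 both ligands had 0 reads in both groups, and at day 3 Ifng had 1 and 0 reads and Ifnb1 had 2 and 1 in siChst7 and siControl libraries. Both were below the filter and are named for their role after their values were seen. Of the other genes of interferon-gamma signalling, 8 were tested. At day 3, 1 was higher in siChst7 cells (Ptpn2, a phosphatase that dampens the pathway, by 0.49 ± 0.07) and 2 were lower (the kinase Jak1 at -0.23 ± 0.04 and the receptor chain Ifngr2 at -0.22 ± 0.04), with a median of -0.0024. At day 1, Irf1 was higher by 0.21 ± 0.06 (adjusted p = 0.0118). At day 0, Irf1, a factor that binds ISRE cores, was higher in siChst7 cells by 0.37 ± 0.05 (adjusted p = 1.32e-05). Its siChst7 effect was lower at day 3 than at day 0, with a log2 difference of -0.35 ± 0.08 (adjusted p = 0.001). The part of Irf1 in the levels of the GTPase genes was not tested. In siControl cells, Irf1 fell between day 0 and day 1, at -0.58 ± 0.06, and rose by 0.55 ± 0.06 from day 1 to day 3.

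Of 12 tested interferon-gamma target genes, 3 were higher in siChst7 cells at day 0, 3 at day 1 and 5 at day 3, where 1 was lower (13.9%, 8.86% and 23.1% of all tested genes were higher at these days). The chemokine Cxcl10 was higher by 1.82 ± 0.29 at day 1 (adjusted p = 0.000127) and by 2.15 ± 0.29 at day 3 (adjusted p = 4.19e-06). Nlrc5, which drives MHC class I genes, was higher by 0.39 ± 0.06 at day 3 (adjusted p = 3.49e-05), and the peptide loading gene Tapbp, at -0.04 ± 0.05, was not called there. Of the 23 type I interferon effectors, 3 were lower in siChst7 cells at day 0, 17 were higher at day 1, and 23 were higher at day 3, with medians of -0.12, 0.60 and 1.08. The ubiquitin-like Isg15 was lower at day 0, at -0.49 ± 0.09 (adjusted p = 0.000317), and higher at day 3, at 1.39 ± 0.10 (adjusted p = 2.3e-09). Rtp4 and the antiviral Bst2 were higher at day 3 by 1.13 ± 0.09 and 0.94 ± 0.08. In siControl cells 21 of the 23 fell between day 0 and day 1, Zbp1, a nucleic acid sensor, by 4.01 ± 0.15 on the log2 scale. Of 8 tested genes of type I interferon signalling, 5 were higher and 2 lower in siChst7 cells at day 3, with Usp18, a brake on the receptor, at 0.95 ± 0.10, Irf7 at 0.83 ± 0.13 and the receptor chain Ifnar1 at -0.27 ± 0.04.

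Of the 12 genes in the autophagy list, 3 were higher and 3 lower in siChst7 cells at day 3, with a median of -0.0061. These counts lie near the shares of all tested genes, 23.1% higher and 21.6% lower. Sqstm1 was lower at -0.28 ± 0.05 and Atg7 at -0.42 ± 0.08. Of 6 tested inflammasome genes, Casp4, which encodes caspase-11, was the single one called at day 3, higher by 1.46 ± 0.13 (adjusted p = 2.79e-08). It was also higher at day 1, by 0.59 ± 0.13 (adjusted p = 0.00235), and at day 0, by 0.37 ± 0.11 (adjusted p = 0.0111). The cytosolic DNA sensor Aim2, at 0.22 ± 0.28, was not called at day 3 (adjusted p = 0.55). Of the 5 genes in the list of prenylation enzymes, Fnta was higher by 0.21 ± 0.07 and Icmt lower at -0.19 ± 0.06 at day 3.

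**Figure D5:**
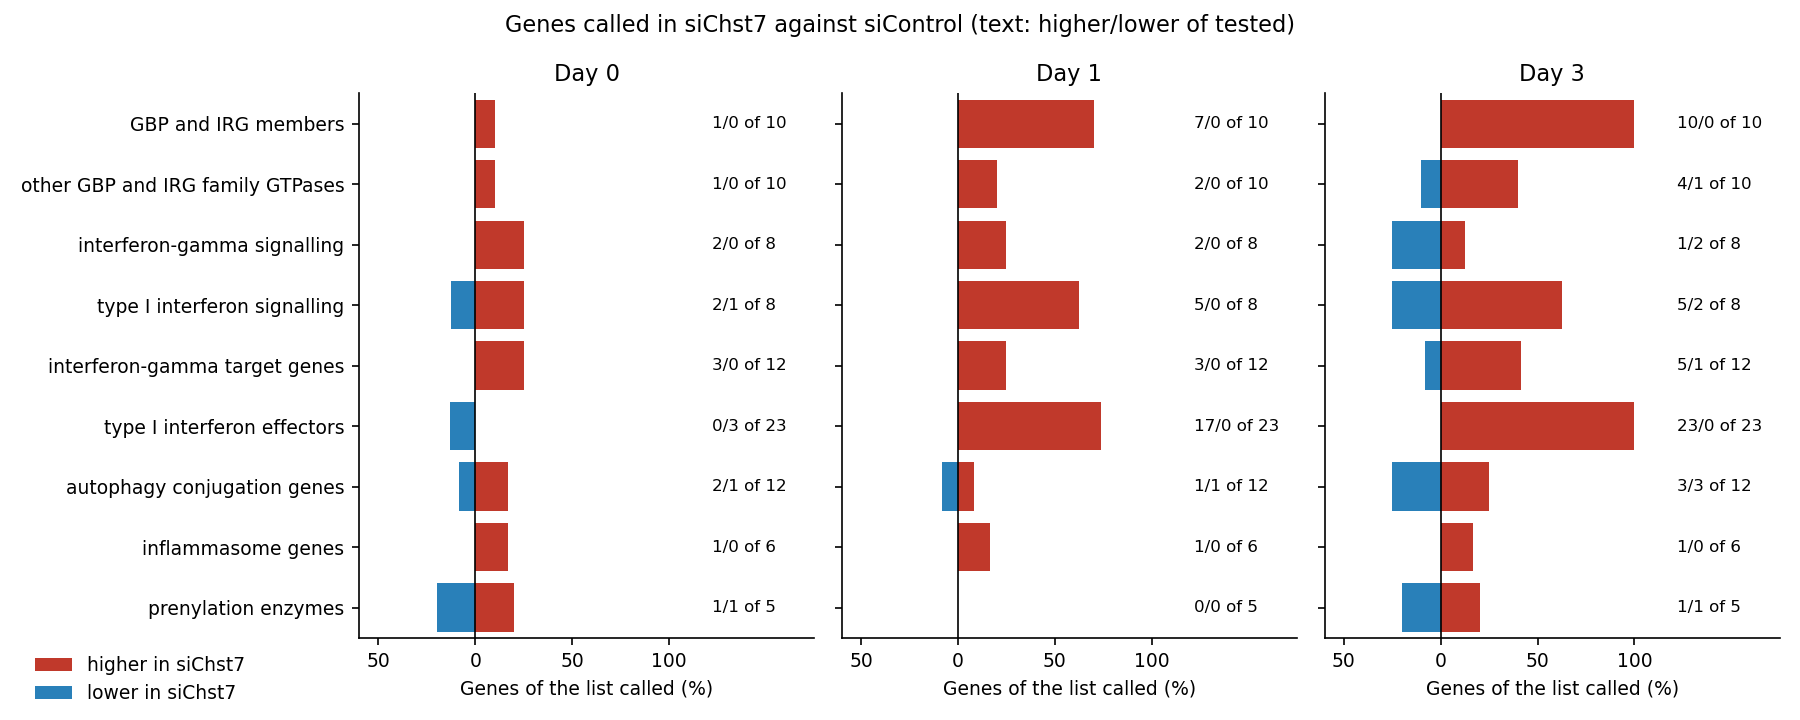
Share of the tested genes of each list (horizontal axis, percent) called higher in siChst7 (red, to the right) or lower (blue, to the left) than in siControl at days 0, 1 and 3, with the counts printed beside the bars. The 10 GBP and IRG genes go from 1 to 7 to 10 called higher, and the 23 type I interferon effectors from 0 to 17 to 23.

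The genes whose pattern over the 6 groups lay nearest to that of the 10 GTPases were sought among 9927 other genes with at least 5 CPM on average. Likeness was the root mean square distance between centred group means of log2 CPM, over 6 groups of 3 libraries. The nearest were Ifi202b at 0.147, Ifi211 at 0.150, Gbp6 at 0.164, Gchfr at 0.188 and Dhx58 at 0.205. The mean centred profile of the 10 was 0.84 in siChst7 and 0.84 in siControl cells at day 0, -0.24 and -1.00 at day 1, and 0.25 and -0.70 at day 3. Of the 10 themselves, Gbp7 lay nearest to that mean, at 0.201, and Gbp5 farthest, at 1.37. These distances are a description of 6 group means and carry no test.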

How the data were processed

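Poly-A RNA-seq libraries of 18 samples were counted per gene by the authors, and the deposited values are whole-number read counts with gene lengths. The submitters' processing notes name HISAT2, Subread, featureCounts, DESeq2 and mm10; versions, strand setting and the treatment of reads that match several genes were not given in the sources used here. Totals of 30590742 to 50021142 counts set the precision. Counts were scaled by TMM and fitted with edgeR 4.0.16 (quasi-likelihood F-test, two-sided) in R 4.3.3, all 18 libraries in 1 fit of 6 groups, over the 13802 genes that passed filterByExpr, and p-values were adjusted by Benjamini-Hochberg over all of these with a threshold of 0.05. An SE is the size of the log2 fold change divided by the square root of F. The common dispersion was 0.00331, a coefficient of variation of 5.75%. CPM and RPKM use TMM-scaled totals. The 10 genes and the gene lists were chosen with earlier results of these data known. All 10 are named, and from each list, in each comparison, up to 3 called genes with the smallest p and the uncalled gene with the highest mean CPM were open to naming, with Chst7, Mef2c and Tbx5 as a check of the labels and the 5 genes of nearest pattern; the ligands were added after their values were seen. Alternatives were DESeq2 size factors, upper quartile scaling, library totals, no filter, a stricter filter, DESeq2 1.42.0 with its Wald test, a fit of the compared libraries alone, a replicate block, an offset for gene length, Tgtp1 and Tgtp2 summed, and each library left out in turn. The scripts were tested on simulated data. Promoters are RefSeq windows of GRCm38.p6, aligned with Biopython 1.88, and alignments under 200 bases were left out. The result of 1 gene of the lists is not reported here.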

Additional observations from a re-analysis of the deposited data

Results flagged for a closer look

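For 8 of the 10 genes the siChst7 effect differed between days by the test of the difference of differences (edgeR's quasi-likelihood test, Benjamini-Hochberg adjusted over all tested genes). Between day 0 and day 1 the log2 difference was 0.67 for Igtp (adjusted p = 0.0057), 0.47 for Irgm1 (0.00112), 0.77 for Irgm2 (0.000503), 0.94 for Iigp1 (0.0243) and 2.48 for Tgtp1 (0.0142). Between day 0 and day 3 it was 0.59 for Gbp2 (0.000112), 0.71 for Gbp3 (4.91e-05), 0.41 for Gbp7 (0.00851), 0.79 for Igtp (0.000295), 0.61 for Irgm1 (1.56e-05), 0.93 for Irgm2 (2.28e-05), 1.60 for Iigp1 (5.73e-05) and 1.63 for Tgtp1 (0.00787). Between day 1 and day 3 it was 0.37 for Gbp2 (0.0109) and 0.42 for Gbp3 (0.0121). A positive value means that siChst7 stood higher against siControl at the later day.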

How the results depend on the processing

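Of 100 log2 fold changes of the 10 genes (10 comparisons), 63 were called, and 54 of these kept their call under every alternative run; none of the 63 changed sign. The count of genes called in siChst7 against siControl at day 0, 1 here, was 2 with library totals, 2 with no filter, 2 with DESeq2's Wald test, 3 in a fit of the compared libraries alone and 0 to 1 with a library left out. With a library left out, the counts ran from 6 to 7 at day 1 and 8 to 10 at day 3, at 10 and 5 to 6 in siControl cells from day 0 to day 1 and day 1 to day 3, from 8 to 9 and 6 to 8 in siChst7 cells over the same days, and from 4 to 6, 8 to 9 and 1 to 4 for the differences between days 0 and 1, 0 and 3, and 1 and 3. The last was 2 with all libraries, 1 without siControl replicate 3 of day 1 and 4 without siChst7 replicate 2 of day 3. Signs turned for 5 log2 fold changes, none of them called. From day 1 to day 3 in siControl cells, Gbp7 was at -0.027 with an offset for gene length and from -0.025 to 0.11 with a library left out, and Iigp1 at 0.035 with upper quartile scaling, 0.081 with library totals, 0.0082 with the stricter filter and from -0.14 to 0.019 with a library left out. In siChst7 cells Gbp2 was at -0.11 with the offset and from -0.036 to 0.073 with a library left out. Between day 1 and day 3, the difference ran from -0.12 (without siControl replicate 3 of day 1) to 1.41 for Gbp5 and from -0.061 (without the same library) to 0.24 for Igtp. The cause of these changes was not tested. Library totals moved the median of all genes by 0.10 from day 1 to day 3 in siChst7 cells and by -0.11 in the difference between days 0 and 3, and the offset for gene length by -0.11 in siChst7 cells from day 1 to day 3. A fit of the compared libraries alone called 3924 genes, against 2426, at day 1, and 2448, against 1615, in the difference between days 0 and 1. Without siChst7 replicate 2 of day 3, 7124 genes were called at day 3, against 6165. Replicate numbers did not pair the samples: deviations of same-numbered libraries correlated from -0.043 to 0.061 over 21 pairs. With a replicate block the counts of called genes were 1, 7 and 10 for siChst7 against siControl at days 0, 1 and 3, each as without it, and 9 against 8 for the difference between days 0 and 3, 9 against 8 in siChst7 cells from day 0 to day 1, 6 against 5 in siControl cells and 7 against 7 in siChst7 cells from day 1 to day 3. Depth limits Gbp5 and the Tgtp genes, whose counts fall under 10 in some libraries. The stricter filter gave no value for Gbp5 and Tgtp2, and a fit of the compared libraries alone gave none for Gbp5 in 5 of the 10 comparisons, where it fell below the filter.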
